A study of Mus musculus with 3 samples.

Results

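Socs1, Socs2, Socs3 and Cish, 4 genes of the suppressor of cytokine signalling (SOCS) family, were read together with the kinase genes Pim1 and Jak2 and the transcription factor gene Stat3 in RAW264.7 cells treated with lipopolysaccharide (LPS). These 7 genes were taken from the array by their symbols, and every probe set annotated to 1 of them was used, which gave 14 of 22690 probe sets and 7 of 12393 named genes. RAW264.7 is an established mouse macrophage line transformed by Abelson leukaemia virus. LPS, a glycolipid of the bacterial outer membrane, is sensed by Toll-like receptor 4. The groups were untreated cells (0 h), cells after 2 h of LPS and cells after 12 h of LPS, with 1 array per time and 3 arrays in all. The LPS dose is not given in the sources used here, and untreated cells were profiled at 0 h alone, so LPS and time in culture cannot be told apart. Of 11 macrophage markers, among them Lyz2 and Cd68, all were above the signal floor on each array, and of 5 T cell markers none was. At most 1 marker of each of the B cell, fibroblast and epithelial lists was above it, and 2 to 4 of 5 neutrophil markers were, the highest being Mpo at 66.2.

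Many cytokine receptors have no enzyme of their own and signal through Janus kinases such as JAK2, which phosphorylate STAT proteins. Phosphorylated STAT3 enters the nucleus and raises transcription of its targets, and Socs3 and Pim1 are among the targets known in mouse cells. SOCS proteins close the loop: SOCS3 binds the gp130 chain of the interleukin 6 receptor and inhibits the attached kinases, SOCS1 limits interferon signals, and SOCS2 and CIS, the product of Cish, are known for limiting receptors that use STAT5. PIM1 is a serine/threonine kinase linked to cell survival. In macrophages LPS is known to start this circuit both directly and through cytokines that the cells secrete.

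The stretches of DNA before the transcription starts are shown for the members that were at least 2-fold higher at 2 h, because these are where a STAT or NF-kB site could lie. They come from RefSeq, build GRCm38.p6, read 5′ to 3′ on the gene's strand. Capitals mark the STAT motif TTCNNNGAA, which reads the same on both strands. The first 3 are the 250 bases before the annotated start, for Socs3 chr11:117969367-117969616 on the minus strand, for Pim1 chr17:29490535-29490784 on the plus strand and for Jak2 chr19:29251553-29251802 on the plus strand. The Cish stretch is 30 bases across the start, chr9:107296654-107296683 on the plus strand.
Socs3: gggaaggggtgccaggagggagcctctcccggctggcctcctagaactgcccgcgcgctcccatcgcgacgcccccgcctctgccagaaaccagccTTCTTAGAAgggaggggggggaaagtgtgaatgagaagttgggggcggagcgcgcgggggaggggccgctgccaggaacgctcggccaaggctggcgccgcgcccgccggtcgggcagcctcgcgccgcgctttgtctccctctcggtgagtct
Pim1: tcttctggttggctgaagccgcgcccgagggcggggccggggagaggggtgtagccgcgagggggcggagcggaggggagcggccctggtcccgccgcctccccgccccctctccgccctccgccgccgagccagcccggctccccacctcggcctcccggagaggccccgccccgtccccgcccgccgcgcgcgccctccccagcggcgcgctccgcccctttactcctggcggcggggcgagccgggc
Jak2: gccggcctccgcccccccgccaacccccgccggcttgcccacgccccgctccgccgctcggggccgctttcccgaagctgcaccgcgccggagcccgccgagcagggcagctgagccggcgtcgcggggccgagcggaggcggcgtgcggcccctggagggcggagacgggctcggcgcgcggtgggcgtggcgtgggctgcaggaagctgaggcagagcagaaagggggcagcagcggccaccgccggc
Cish: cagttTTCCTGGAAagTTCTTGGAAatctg

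Motifs were searched on both strands in windows of 300 bases, from 250 before to 50 after each start. The RefSeq table gave a window for 6 members, 7 windows in all because Pim1 has 2 starts, and Socs2 had none. TTCNNNGAA was found in Socs3 once, from 154 to 146 bases before the start, and in Cish 2 times, over bases 1 to 9 and 12 to 20 counted from the start. Over all genes, 8.30% of 32851 windows held this motif. The NF-kB consensus, the cyclic AMP response element TGACGTCA and the AP-1 motif TGANTCA were found in 4.51%, 1.79% and 7.81% of all windows and in none of the 7. Since TTCNNNGAA alone was found, no matches of different motifs overlap. The windows of Pim1 at its first start and of Jak2 were 81.3% and 81.0% G and C, that of Pim1 at its second start was 49.0%, that of Socs3 was 73.3% and that of Cish 53.3%, against a median of 52.7% over all windows. A match is a description of these letters and says nothing of binding, and a missing match covers this window alone.

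Signals below are the authors' linear probe set intensities, rescaled to a common trimmed mean. A signal under 34.96, the 40th percentile of all values, counted as under the floor, and where 1 of the arrays compared was under it the fold is a lower bound, given as "at least". No time had a replicate and the conditions could not be tested, so a gene was called higher or lower when its signals differed at least 2-fold. As the only error these arrays hold, the log2 differences of probe sets of one gene varied with an SD of 0.32 for 2 h over 0 h, 0.34 for 12 h over 0 h and 0.31 for 12 h over 2 h. That SD leaves out any difference between cultures, which was not measured. The arrays read pooled cells, so a response in more cells and a larger response per cell cannot be told apart.

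Among the inhibitors, Socs3 was the one with a large difference. Its probe set 1455899_x_at, the brightest, had signals of 15.8 at 0 h, 944 at 2 h and 912 at 12 h. The probe set 1456212_x_at had 1.70, 486 and 589 at the same times. The probe set 1416576_at, the only one of the 3 without a suffix that marks possible cross-hybridisation, had 8.69, 463 and 465. All 3 were under the floor before LPS and far above it at both later times, with 2 h and 12 h close together.

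By its brightest probe set Socs3 was at least 27.0-fold higher at 2 h and at least 26.1-fold higher at 12 h than at 0 h. By 1416576_at it was at least 13.2-fold higher at 2 h and at least 13.3-fold at 12 h, and by 1456212_x_at at least 13.9-fold and 16.9-fold. As multiples of the SD between probe sets, these log2 differences, all lower bounds, were 11.0 or more. That SD was pooled over probe sets above the floor on both arrays, which Socs3 was not at 0 h. The multiple is thus a scale for size and no measure of significance. At 12 h the Socs3 signal stood at 96.5% to 121% of the 2 h signal over the 3 probe sets, a difference of less than 1 SD in each. The size over 0 h rests on the floor, since no probe set read Socs3 before LPS: the log2 difference at 2 h was 4.76 as reported, 3.48 when the floor was raised to the 60th percentile and 5.90 when it was lowered to the 20th.

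Cish, the second inhibitor read above the floor, had signals of 90.9 at 0 h, 200.2 at 2 h and 148 at 12 h on its single probe set 1448724_at. It was above the floor on every array, highest at 2 h and between the other values at 12 h. It was 2.20-fold higher at 2 h than at 0 h, a log2 difference of 1.14 or 3.57 SDs, and 1.63-fold higher at 12 h. Of its excess over 0 h at 2 h, 52.3% was left at 12 h. The 2-fold call at 2 h was narrow: with a pseudocount of 32 in place of the floor the log2 difference was 0.92, which is under 2-fold.

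Socs1 and Socs2 were not read. The only Socs1 probe set, 1450446_a_at, had signals of 18.9 at 0 h, 12.1 at 2 h and 6.01 at 12 h. The Socs2 probe set 1418507_s_at had 16.7, 13.7 and 8.21, and the Socs2 probe set 1449109_at had 6.39, 5.20 and 5.51. All 3 probe sets were under the floor on every array, so neither gene has a fold. Whether these probe sets detect their transcripts was not tested, and the values cannot show whether Socs1 or Socs2 changed.

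**Figure D1:**
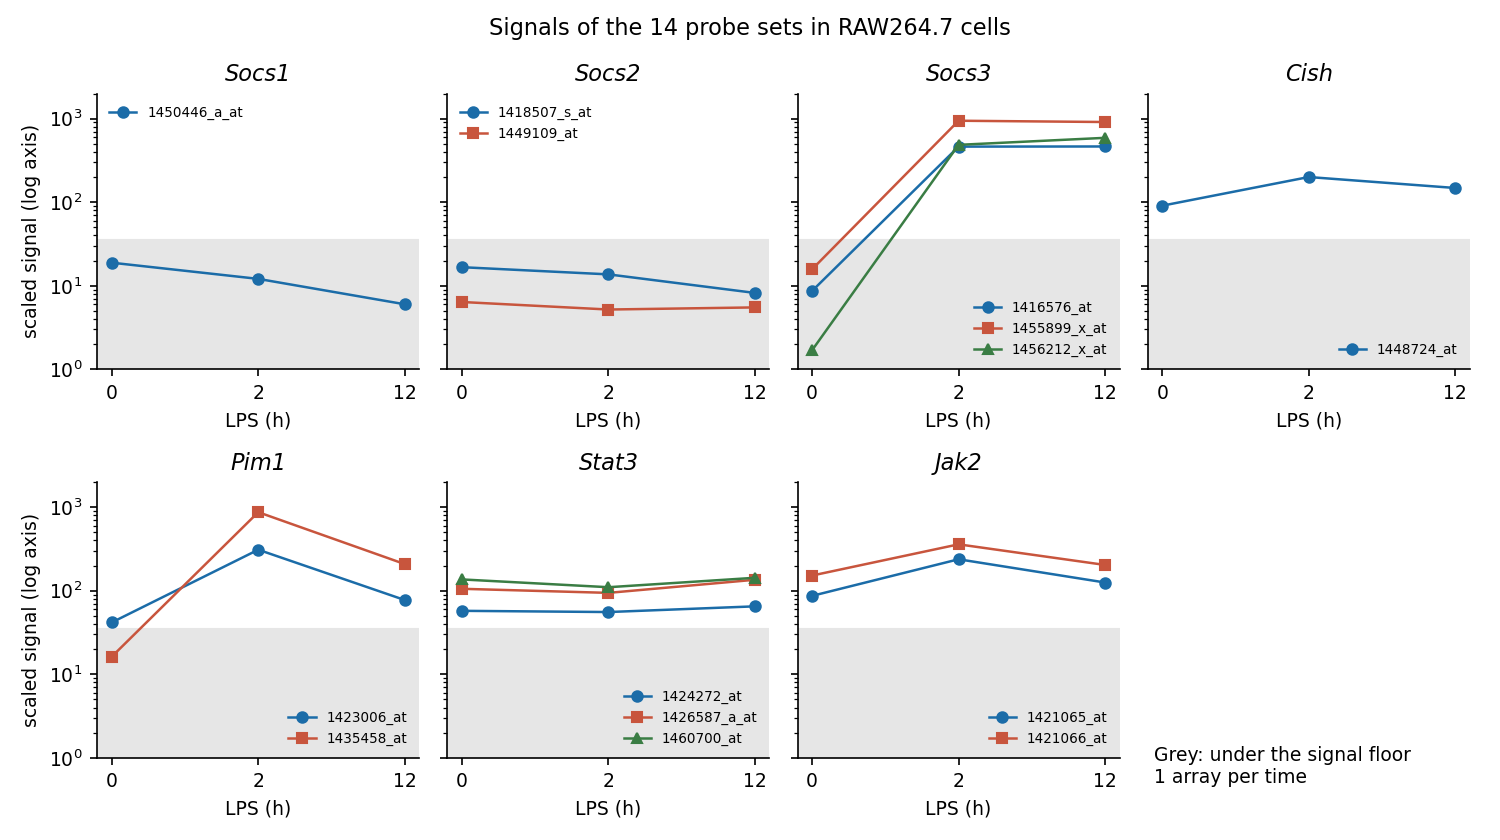
Scaled signal (log axis) of each of the 14 probe sets at 0, 2 and 12 h of LPS, 1 array per time and evenly spaced times, with a panel per gene and signals under the floor of 34.96 in grey. The 3 Socs3 probe sets are under the floor at 0 h and between 463 and 944 at 2 h and 12 h, Pim1, Jak2 and Cish are highest at 2 h, and Socs1 and Socs2 lie in the grey at every time.

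Pim1 was highest at 2 h on both of its probe sets. The brighter, 1435458_at, had signals of 16.3 at 0 h, 871 at 2 h and 209 at 12 h. The other, 1423006_at, had 41.8, 309 and 77.4. Only the first was under the floor before LPS. By 1435458_at Pim1 was at least 24.9-fold higher at 2 h, and by 1423006_at it was 7.41-fold higher.

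The Pim1 signal was lower at 12 h than at 2 h by 4.18-fold on 1435458_at, and the differences on it and on 1423006_at were 6.62 and 6.42 SDs. The 12 h signal was 23.9% and 25.0% of the 2 h signal, and the 2 probe sets differed little in this. Against 0 h they differed: Pim1 at 12 h was at least 5.97-fold higher by 1435458_at and 1.85-fold higher by 1423006_at, which is under 2-fold. By the median over both, the log2 difference at 12 h was 1.73 in place of 2.58. On 1423006_at 13.3% of the 2 h excess over 0 h was left at 12 h.

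Jak2, the kinase, had the same order of times at lower amplitude. Its brighter probe set 1421066_at had signals of 152 at 0 h, 359 at 2 h and 203 at 12 h. Its other probe set 1421065_at had 86.8, 238 and 125. Both were above the floor throughout, highest at 2 h and lowest at 0 h. Jak2 was 2.36-fold higher at 2 h by the first and 2.74-fold by the second, 3.89 and 4.56 SDs. At 12 h it was 1.34-fold and 1.44-fold higher than at 0 h, under 2-fold on both. The share of the 2 h excess left at 12 h was 24.9% and 25.5%. Jak2 stayed at least 2-fold higher at 2 h under each of the 8 alternatives of scaling, floor and probe set choice, with log2 differences of 1.09 to 1.38.

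Stat3, the factor downstream, was nearly level at all times. The probe set 1460700_at had signals of 136 at 0 h, 110 at 2 h and 143 at 12 h. The probe set 1426587_a_at had 105, 94.2 and 135, and the probe set 1424272_at had 57.4, 55.6 and 65.0. All 3 were above the floor on every array, lowest at 2 h and highest at 12 h. The log2 differences at 2 h over 0 h were -0.31, -0.16 and -0.05, each within 1 SD of 0 and beside a median of -0.10 over all genes measured. With arrays scaled to one median that median was 0.03, and over the 8 alternatives the Stat3 value ran from -0.31 to -0.16. At 12 h over 2 h Stat3 was 1.30-fold, 1.43-fold and 1.17-fold higher, at most 1.67 SDs. These arrays read Stat3 mRNA and not the phosphorylation that activates the protein.

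In the count over genes, 4 of the 5 members read were at least 2-fold higher at 2 h than at 0 h (Socs3, Pim1, Jak2 and Cish), where 2.09% of all genes measured were. None was at least 2-fold lower, where 1.68% of all genes were. At 12 h over 0 h the number was 2 of 5 (Socs3 and Pim1), against 3% of all genes, and none was lower, against 2.39%. At 12 h over 2 h it was 1 of 5 at least 2-fold lower (Pim1), against 1.97%. By probe sets, 8 of the 11 read were at least 2-fold higher at 2 h, against 2.25% of all probe sets with 1 gene. At 12 h over 0 h 4 of 11 were, against 2.9%, and at 12 h over 2 h 2 of 11 were at least 2-fold lower, against 2.15%. The remaining 3 probe sets, of Socs1 and Socs2, were under the floor on all arrays. Probe sets of one gene share their transcript and are not replicates of a time, and both comparisons with 0 h share that array. The members, and the lists below, were chosen with earlier results of these data known, so these counts are a description alone. By their brightest probe sets Socs3 and Pim1 passed the floor only with LPS, so they could not be called lower than at 0 h.

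**Figure D2:**
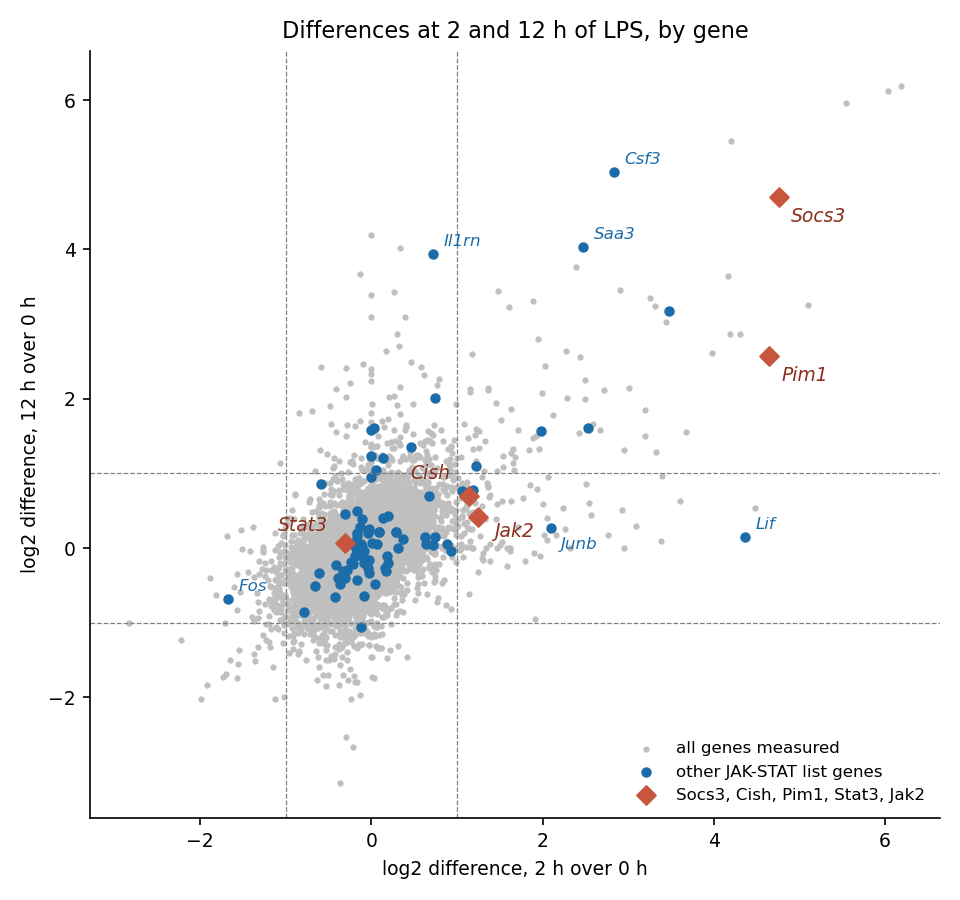
Log2 difference at 2 h over 0 h (x axis) against log2 difference at 12 h over 0 h (y axis) for each gene measured, 1 point per gene, with dashed lines at 2-fold and genes that neither array of a comparison read above the floor drawn at 0. Socs3 lies near the diagonal at 4.76 and 4.70, Pim1 lies to the right at 4.64 and 2.58, Jak2 and Cish sit just past 2-fold at 2 h, and Stat3 sits near 0 on both axes.

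The genes with the most similar time course were sought among 8724 genes measured, from 3 arrays. Distance was taken between the pairs of log2 differences at 2 h and 12 h over 0 h. Each gene was read by its brightest probe set, and distances from other probe sets were not computed. For Cish they were Btg1, the neuropilin gene Nrp2 and Bcl3, which encodes an atypical IkB protein, at distances of 0.064, 0.071 and 0.081. For Jak2 they were Sc5d, Tmem229b and the choline kinase gene Chka, at 0.088, 0.090 and 0.11. Its pair was 1.24 and 0.42 by that probe set and 1.45 and 0.53 by 1421065_at. For Pim1, read by 1435458_at, they were Gadd45b at 0.44, the tumour necrosis factor gene Tnf at 0.54 and Traf1 at 0.66. The pair of 1435458_at was at least 4.64 and 2.58, and that of the other Pim1 probe set 1423006_at was 2.89 and 0.89. These neighbours therefore belong to 1435458_at alone. The genes nearest to the brightest Socs3 probe set were farther off. They were the chemokine gene Ccl5 at 0.93, Phlda1 at 1.21 and the interleukin 1 beta gene Il1b at 1.48. The other Socs3 probe sets had pairs of at least 3.73 and 3.73 (1416576_at) and at least 3.80 and 4.08 (1456212_x_at). The pair of Ccl5 was 4.20 and 5.46 and that of Phlda1 at least 4.17 and 3.65. This order therefore covers the brightest Socs3 probe set alone. The distances of Socs3 and Pim1 rest on bounds, since the brightest probe set of each was under the floor at 0 h, as were Phlda1 and Traf1.

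Around these members, 98 other genes of the pathway were followed in 6 lists, 91 of them with a probe set. At 2 h over 0 h, 10 of the 75 read were called higher and 1 was called lower, where 2.09% and 1.68% of all genes were, with a median log2 difference of 0.01 beside -0.10 over all genes. At 12 h over 0 h, 14 of 77 were higher and 1 was lower, against 3% and 2.39% of all genes, with a median of 0.07 beside -0.05. The remaining 7 genes were not analysed here.

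Of the cytokines that signal through Janus kinases, 2 of 10 measured were called higher at 2 h and 2 of 11 at 12 h. Of all genes measured, 2.09% were higher at 2 h and 3% at 12 h. Lif, a gp130 cytokine, had signals of 9.19 at 0 h, 721 at 2 h and 38.7 at 12 h. It was thus at least 20.6-fold higher at 2 h, and 18.7-fold lower at 12 h than at 2 h. Its other probe set gave log2 differences of at least 2.39 and at most -2.39 for these. Csf3, the granulocyte growth factor gene, had 8.89, 248 and 1142, the highest at 12 h. Ebi3, a subunit of interleukin 27 and interleukin 35, was 2.31-fold higher at 12 h (373 against 161). Il6 had signals of 2.80, 25.5 and 67.4 and passed the floor at 12 h alone, so it was at least 1.93-fold higher than at 0 h. Il10 had 31.5, 57.6 and 35.9, at least 1.65-fold higher at 2 h. None of the measured cytokines was at least 2-fold lower at 2 or 12 h than at 0 h, but the floor nearly fixed this. A gene with a signal under 2 times the floor at 0 h could not be called lower. Of the measured cytokines, only Ebi3 and, narrowly, Ctf1 were above that level. The shares lower over all genes were 1.68% and 2.39%, and the cytokines cannot be compared with them.

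Of the receptor chains, 0 of 19 measured genes were at least 2-fold apart at 2 h and 2 of 20 were higher at 12 h. The shares over all genes were 2.09% higher and 1.68% lower at 2 h, and 3% higher at 12 h. Csf2rb, the shared chain of the receptors for GM-CSF, interleukin 3 and interleukin 5, had signals of 32.9, 26.0 and 105, and its log2 difference at 12 h over 0 h was at least 1.58. Its close copy Csf2rb2 was 1.82-fold higher, and reads of the pair by short probes are uncertain. Il7r was 2.07-fold higher at 12 h (86.7 against 41.9) by its brightest probe set. Its other probe set, under the floor at 0 h, gave a log2 difference of at least 0.48. Il6st, which encodes gp130, the chain that SOCS3 binds, had 108, 68.3 and 76.3. By this brightest probe set it was 1.59-fold lower at 2 h and 1.42-fold lower at 12 h, under 2-fold on each. Its 3 probe sets ran from -0.93 to -0.38 in log2 difference at 2 h and from -0.90 to -0.42 at 12 h.

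Among the other kinases and STATs, 0 of 7 measured were called at 2 h and 1 at 12 h. Over all genes 2.09% were called higher and 1.68% lower at 2 h, and 3% and 2.39% at 12 h. The one at 12 h was Stat2, a partner in the interferon-activated complex, which had signals of 62.5 at 0 h, 63.7 at 2 h and 190 at 12 h. It was 3.04-fold higher at 12 h than at 0 h. Stat5a had 60.5, 115 and 59.1, so 1.90-fold higher at 2 h by its brightest probe set. Its other probe set, under the floor at 0 h, gave a log2 difference of at least 1.29. Stat5b had 83.0, 67.2 and 62.7 and was not 2-fold apart. Jak1 had 230.4, 252 and 305 on its brightest probe set, and Tyk2 had 196, 197 and 205. Neither kinase was 2-fold apart between any times.

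Of 19 other inhibitors, 1 was at least 2-fold higher at 2 h and none at 12 h, against 2.09% and 3% of all genes. It was Ptpn2, a phosphatase of Janus kinases and STATs, at 2.08-fold (591 against 284), but its probe sets ran from -0.11 to 1.06 in log2 difference. Socs5, chosen for mention after its values were seen, had signals of 180 at 0 h, 279 at 2 h and 187 at 12 h. It was 1.55-fold higher at 2 h by the brighter probe set, and the other gave a log2 difference of 1.26. By their brightest probe sets Socs4, Socs6 and Socs7 were within 1.2-fold of 0 h at both times.

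Of the other Pim kinases, which are close relatives of Pim1, both were at least 2-fold higher at 12 h by their brightest probe sets. The share over all genes was 3%. Pim2 had signals of 64.8 at 0 h, 108 at 2 h and 261 at 12 h, highest at 12 h, and was 4.02-fold higher there than at 0 h. Pim3 had 200.4, 469 and 429 on its brightest probe set, 2.34-fold higher at 2 h and 2.14-fold at 12 h. Its 3 probe sets ran from -0.19 to 1.23 in log2 difference at 2 h, so its change is uncertain.

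Genes known as STAT3 targets in other settings, many of which other factors also control, had 6 of 18 members read at least 2-fold higher at 2 h and 7 of 18 at 12 h. The shares over all genes measured were 2.09% higher and 1.68% lower at 2 h, and 3% and 2.39% at 12 h. Median log2 differences of the list were 0.56 and 0.60, beside -0.10 and -0.05 over all genes. Myc was 11.1-fold higher at 2 h and 9.02-fold at 12 h (656 and 533 against 59.1). Cebpd, a C/EBP factor gene, was 5.78-fold and 3.05-fold higher. The acute phase gene Saa3 was 5.55-fold and 16.3-fold higher. Il1rn, the interleukin 1 receptor antagonist gene, was 1.65-fold higher at 2 h and 15.3-fold at 12 h (2994 against 196) by its brightest probe set. Its 3 probe sets ran from 0.72 to 1.12 in log2 difference at 2 h and from 3.48 to 4.17 at 12 h. The single gene at least 2-fold lower at 2 h was Fos, at 3.20-fold (294 against 938), and at 12 h it was Bcl6, at 2.09-fold (72.5 against 151). Both were named after their values were seen, and the other Bcl6 probe set had a log2 difference of 0.01.

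**Figure D3:**
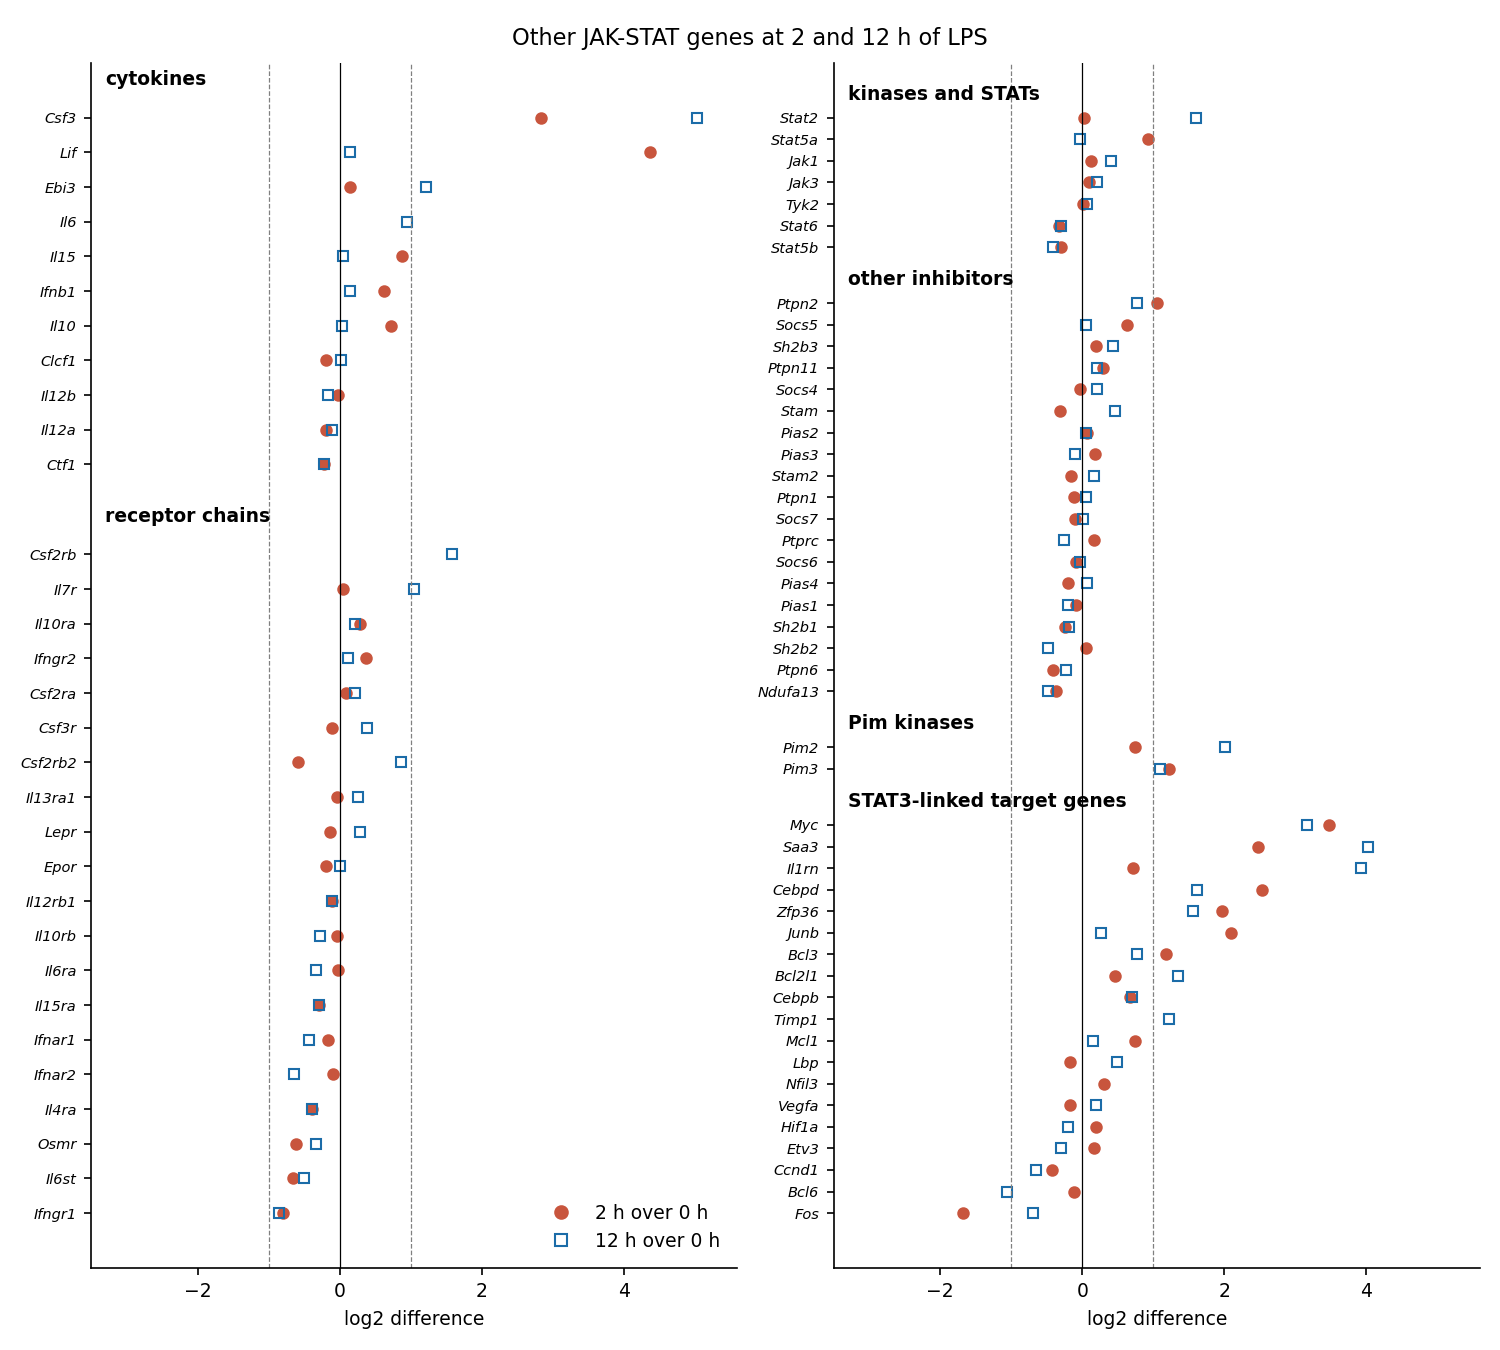
Log2 differences at 2 h over 0 h (filled circles) and 12 h over 0 h (open squares) for the other pathway genes above the floor on at least 1 array, grouped by role, with dashed lines at 2-fold and 1 array per time. Most receptor chains and inhibitors lie within 2-fold, as most genes measured do. Csf2rb and Il7r at 12 h and Ptpn2 at 2 h lie past it. Lif at 4.37 stands out at 2 h and Csf3 at 5.03 stands out at 12 h.

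**Figure D4:**
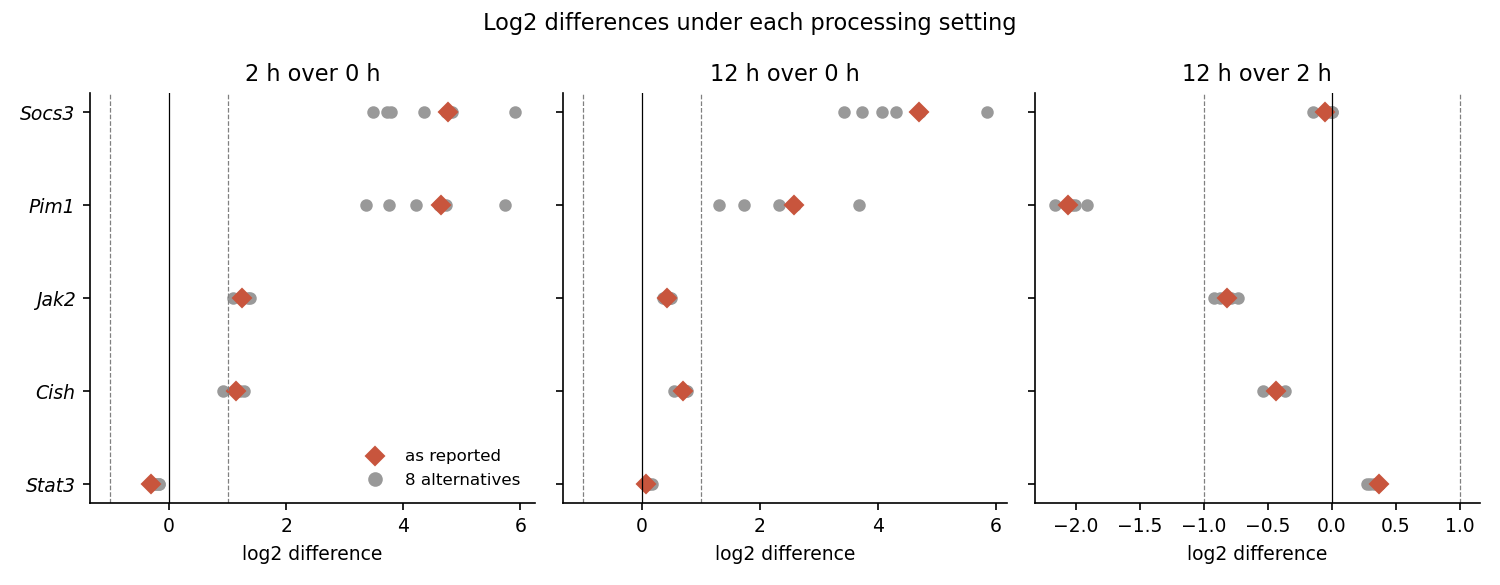
Log2 differences of the 5 members read, in 3 comparisons, as reported (diamonds) and under 8 alternatives of scaling, floor and probe set choice (circles), with dashed lines at 2-fold. The spread is widest for Socs3 and Pim1 against 0 h, and Cish is under 2-fold at 2 h in 1 alternative, at 0.92.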

How the data were processed

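Intensity values on a linear scale, deposited by the authors for 3 one-colour arrays, were used; they come without detection calls. Per the labels' protocols, targets were made from 5 µg of total RNA by a modified Affymetrix procedure; summarisation and scaling are not given there. Of 22690 probe sets, 64 were controls, 20393 had 1 gene in the platform annotation, 691 had several and 1606 were not listed; 20364 of the single-gene probe sets had a gene identifier in RefSeq (GRCm38.p6) and took its symbol.

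Non-control signals were rescaled to one 2% trimmed mean, which moved them by at most 0.16%, floored at the 40th percentile and put on the log2 scale. A gene was read by its brightest probe set. The SD between probe sets was pooled over genes with several above the floor on both arrays. The arithmetic of the calls was checked on simulated data, which bears neither on the conditions nor on the error between cultures. Python 3.11.15, numpy 2.4.6 and pandas 2.3.3 were used. The number of arrays limits the precision.

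The members and lists were chosen with earlier results of these data known. Named genes were all members, up to 4 called genes per list by size, 10 pathway genes always, and the 3 nearest time courses per called member. Alternatives covered the scaling, the floor, the probe set and the fold.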

Additional observations from a re-analysis of the deposited data

How the results depend on the processing

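No paired analysis was possible because each time had 1 array. At a fold of 3 in place of 2, members called at 2 h over 0 h numbered 2 in place of 4, and at 1.5-fold those called at 12 h over 2 h numbered 2 in place of 1. For the other pathway genes, a fold of 1.5 gave 24 called at 2 h over 0 h, 24 at 12 h over 0 h and 23 at 12 h over 2 h, in place of 11, 15 and 11. At 1.5-fold 5.59% of all genes were higher and 9.63% lower at 2 h, 8.27% and 10.3% at 12 h, and 10.1% and 6.44% at 12 h over 2 h. At 3-fold the shares were 1.03% and 0.155%, 1.16% and 0.313%, and 0.65% and 0.568%. A fold of 3 gave 8 at 12 h over 0 h and 5 at 12 h over 2 h, and probe sets without a suffix gave 6 at 2 h over 0 h, among 57 genes measured in place of 75. The other 52 counts of called members or pathway genes stayed within 1.5 times the count reported. No member's called difference changed sign under any of the 8 alternatives at 2-fold. Socs1 and Socs2 had a value only with the floor at the 20th percentile or a pseudocount, from -0.81 to -0.09 on the log2 scale. Over these 8 alternatives, all genes at least 2-fold higher at 2 h numbered 131 to 349 and lower 51 to 507, at 12 h 170 to 543 and 104 to 492, and at 12 h over 2 h 124 to 601 and 107 to 343. With arrays set to one median the split at 2 h was 224 higher and 72 lower in place of 176 and 141, and at 12 h over 2 h 178 and 225 in place of 224 and 167. Under quantile normalization it was 199 and 85 at 2 h, and 201 and 184 at 12 h over 2 h. With 1 array per time the error between cultures limits every value and was not measured.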
